A study of Homo sapiens with 9 samples.

Results

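The genes KDM1A, HDAC1, RCOR1, SIN3A and CHD3 encode the enzymes against which corin was directed and subunits of the CoREST, SIN3 and NuRD complexes, and their transcripts were followed here in the established melanoma line WM983B. They were taken by symbol, and each was represented by 1 probe, so that 5 probes of the 53617 on the array and 5 of the 14884 genes with a symbol are described. One group of cells received 2.5 µM corin for 24 h, a second received 2.5 µM MS-275 for 24 h, and the vehicle group received a matching amount of DMSO for 24 h. MS-275, also called entinostat, blocks class I histone deacetylases (HDACs) through its benzamide group, and corin is a hybrid molecule that joins an HDAC-binding benzamide to a group directed at the demethylase LSD1. The study deposited 3 arrays per group, 9 in all, on which a probe stands for a whole transcript. The labels spell the hybrid compound corin2, read here as corin.

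Removal of acetyl groups from histone tails by HDAC1 and its close relative HDAC2 is carried out in several large complexes rather than by the free enzymes. In the CoREST complex the scaffold RCOR1 (CoREST1) holds HDAC1 or HDAC2 together with LSD1, the product of KDM1A, a flavin-dependent enzyme that takes methyl groups off lysine 4 of histone H3. The SIN3 complex is built on the scaffolds SIN3A or SIN3B, and the NuRD complex combines the same deacetylases with an ATP-driven chromatin remodeler, CHD3, CHD4 or CHD5. All of these complexes are known mainly for keeping genes silent.

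Values are log2 signals, so that 1 unit is a 2-fold difference. Differences were tested with limma across all named genes, and a gene "passed the test" where its Benjamini-Hochberg adjusted p was under 0.05. The question put to each comparison was whether the transcripts of the inhibited enzymes and of their partners differed with corin or MS-275 from vehicle, and with corin from MS-275 at the same dose and time. Both inhibitors were set against the same 3 vehicle arrays, so the comparisons with vehicle are not independent of each other. Precision is limited by the number of arrays, and because each array is scaled to the others, a cell-wide gain or loss of RNA would leave no trace.

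The 9 arrays had medians between 4.05 and 4.12 log2 units over all probes. Pearson correlations over the named genes lay between 0.989 and 0.991 among corin arrays, and were 0.994 among MS-275 arrays and among vehicle arrays. Corin arrays correlated with vehicle arrays at 0.902 to 0.904, and MS-275 arrays correlated with vehicle arrays at 0.969 to 0.970. Within a group a gene had a median SD of 0.135 among corin arrays, 0.103 among MS-275 arrays and 0.104 among vehicle arrays. Of the melanocyte markers chosen for a check of the labelled cell type, 7 of 8 were measured, and the pigmentation regulator SOX10 averaged 6.85 ± 0.18 in corin arrays, 9.60 ± 0.03 in MS-275 arrays and 10.09 ± 0.06 in vehicle arrays (SD, n = 3). All 7 fell with corin over vehicle and were lower with corin in the comparison with MS-275, and 3 fell with MS-275 over vehicle. Of all named genes 26.8%, 20.8% and 15.4% were lower in these comparisons, and 23.4%, 17.4% and 14.2% were higher. Of the markers of other cell types, 0 of the 4 measured keratinocyte markers passed the test in any comparison, and the fibroblast marker LUM, the only one of 5 measured, averaged 9.07 ± 0.09 in corin arrays, 9.66 ± 0.08 in MS-275 arrays and 9.08 ± 0.06 in vehicle arrays (SD, n = 3). LUM rose with MS-275 over vehicle (0.58 log2, adjusted p = 3.3e-04 by limma) and was lower with corin in the comparison with MS-275 (-0.59, adjusted p = 1.8e-04). Of 5 immune markers 2 were measured, and CD68, a lysosomal protein of macrophages, averaged 11.26, 11.44 and 11.47 in these groups and fell with corin over vehicle (-0.21, adjusted p = 0.0318 by limma), while CD14 averaged 3.61, 3.61 and 3.45 and passed no test. How far these markers and the changes described below go together was not tested.

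Of the 5 genes, RCOR1 rose and CHD3 fell with corin over vehicle. Against this, 23.4% of all named genes rose and 26.8% fell in the same comparison, so that a change with corin was common. With MS-275 over vehicle, 0 of the 5 rose and SIN3A and CHD3 fell, where 14.2% of named genes rose and 15.4% fell. With corin over MS-275, RCOR1 was higher and CHD3 lower, where 17.4% of named genes were higher and 20.8% were lower. KDM1A and HDAC1, the genes of the enzymes corin was built to bind, passed the test in no comparison.

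KDM1A (probe 16660624) had log2 signals of 9.22, 9.24 and 9.02 in corin arrays, 9.42, 9.31 and 9.35 in MS-275 arrays, and 9.23, 9.26 and 9.20 in vehicle arrays. The MS-275 arrays all lay above the other 6, while corin and vehicle arrays overlapped, with corin replicate 3 the lowest of the 9. The difference was -0.07 with corin over vehicle (95% interval -0.26 to 0.12, adjusted p = 0.534 by limma) and 0.13 with MS-275 over vehicle (95% interval -0.06 to 0.32, adjusted p = 0.293 by limma). At matched dose and time corin differed from MS-275 by -0.20, with a 95% interval of -0.39 to -0.02 and an adjusted p of 0.0856 by limma, so this difference did not pass the test after adjustment over all genes, and its unadjusted p was 0.0366. The gene overlaps LUZP1 and the microRNA gene MIR3115 in the RefSeq annotation.

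HDAC1 (probe 16662077) gave 8.44, 8.41 and 8.66 in corin arrays, 8.61, 8.69 and 8.55 in MS-275 arrays, and 8.65, 8.53 and 8.59 in vehicle arrays. The groups overlapped in all 3 comparisons, and the corin arrays were the most spread (SD 0.14, against 0.07 in MS-275 arrays and 0.06 in vehicle arrays, n = 3 each). The difference was -0.08 with corin over vehicle (95% interval -0.28 to 0.12, adjusted p = 0.488 by limma), 0.03 with MS-275 over vehicle (95% interval -0.17 to 0.23, adjusted p = 0.861) and -0.11 with corin over MS-275 (95% interval -0.31 to 0.09, adjusted p = 0.382). Without MS-275 replicate 2 the small difference of MS-275 from vehicle turned to -0.01.

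RCOR1 (probe 16789059), the scaffold that brings LSD1 to nucleosomes, had signals of 8.20, 8.21 and 8.15 in corin arrays, 7.71, 7.94 and 7.80 in MS-275 arrays, and 7.73, 7.67 and 7.57 in vehicle arrays. All 3 corin arrays lay above the other 6, while the MS-275 and vehicle arrays overlapped. It rose 1.45-fold with corin over vehicle, a log2 difference of 0.53 (95% interval 0.34 to 0.72, adjusted p = 2.6e-04 by limma). With MS-275 over vehicle the difference was 0.16 (95% interval -0.03 to 0.35, adjusted p = 0.196), and corin was 1.29-fold above MS-275, a difference of 0.37 (95% interval 0.18 to 0.56, adjusted p = 0.005). The rise stayed under 2-fold, a size that 7.26% of all named genes reached upwards with corin over vehicle, 3.03% with MS-275 over vehicle and 2.41% with corin over MS-275. RefSeq places the pseudogene RPL23AP11 within the gene.

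SIN3A (probe 16811791), a scaffold that links HDAC1 and HDAC2 to DNA-binding repressors, gave 8.91, 8.91 and 8.85 in corin arrays, 8.89, 8.87 and 8.82 in MS-275 arrays, and 9.11, 9.04 and 9.08 in vehicle arrays. All 6 inhibitor arrays lay below the 3 vehicle arrays, by 0.13 log2 units or more, and the inhibitor groups overlapped each other. With MS-275 over vehicle it fell, with a log2 difference of -0.22 (1.16-fold, 95% interval -0.38 to -0.06, adjusted p = 0.0455 by limma), and with corin over vehicle the difference was -0.19 (95% interval -0.35 to -0.03, adjusted p = 0.051), just outside the threshold. The difference with corin over MS-275 was 0.03 (95% interval -0.13 to 0.19, adjusted p = 0.814), and it turned to -0.06 under quantile normalization. Of the 9 fits that each left out 1 array, 7 lost the call for MS-275, all but those without corin replicate 2 and without corin replicate 3, with adjusted p values from 0.0407 to 0.133. The RefSeq annotation places the pseudogene RPL13P4 within SIN3A.

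CHD3 (probe 16830789), an ATPase of NuRD that moves nucleosomes, had signals of 5.72, 5.93 and 5.76 in corin arrays, 6.80, 6.79 and 6.88 in MS-275 arrays, and 7.47, 7.63 and 7.63 in vehicle arrays. The 3 groups did not overlap anywhere, with corin the lowest and MS-275 in between. It fell 3.41-fold with corin over vehicle, a log2 difference of -1.77 (95% interval -1.96 to -1.58, adjusted p = 1.4e-08 by limma), and 1.68-fold with MS-275 over vehicle, a difference of -0.75 (95% interval -0.95 to -0.56, adjusted p = 6.9e-05). At the same dose and time it was 2.02-fold lower with corin than with MS-275, a difference of -1.02 (95% interval -1.21 to -0.82, adjusted p = 3.7e-06). A fall of 2-fold or more that passed the test was seen in 7.61% of all named genes with corin over vehicle, in 0.390% with MS-275 over vehicle and in 3.64% with corin over MS-275. The difference from MS-275 stood close to 2-fold, and was -0.98 without corin replicate 1, -0.997 without corin replicate 3 and -0.99 without MS-275 replicate 3, each still past the test. CHD3 overlaps NAA38 and the small RNA gene SCARNA21 in the RefSeq annotation.

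**Figure D1:**
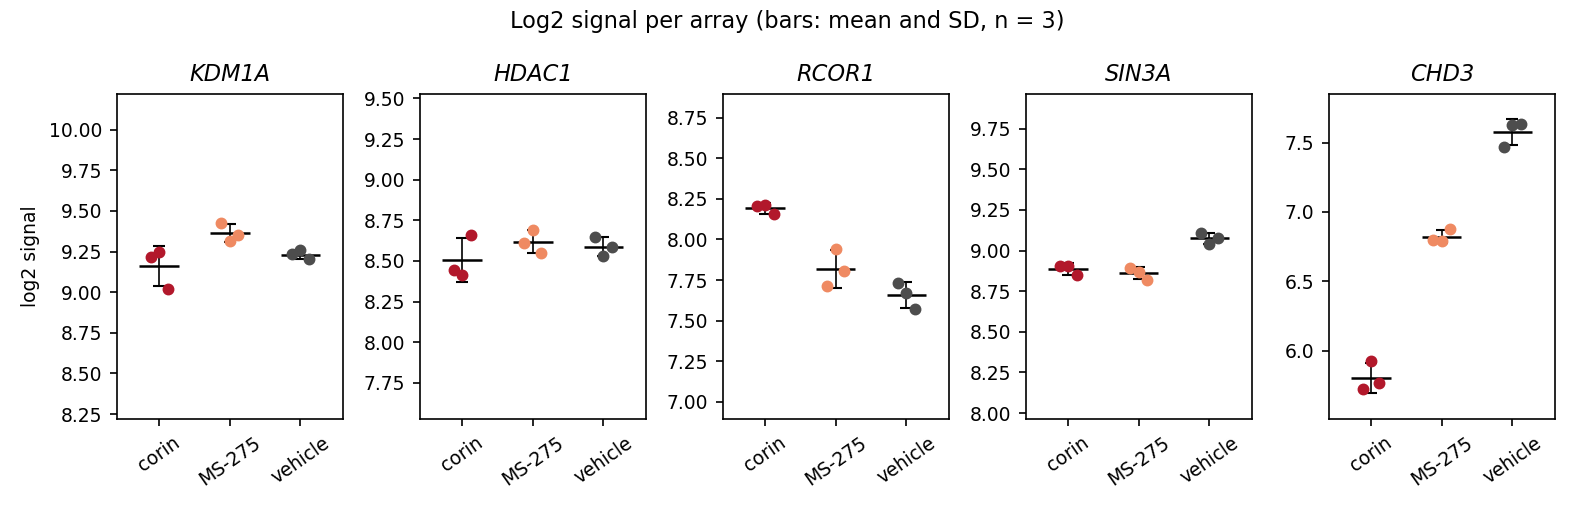
Log2 signal of the 5 genes in each of the 9 arrays (points), with the mean and SD of the 3 arrays of a group as black bars and corin, MS-275 and vehicle from left to right. The axes start at different levels, and CHD3 has the widest one. CHD3 falls into 3 separate groups, averaging 5.81 in corin arrays, 6.82 in MS-275 arrays and 7.58 in vehicle arrays, RCOR1 is highest in the corin arrays, and KDM1A and HDAC1 pass the test in no comparison.

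Set side by side, the log2 differences with corin over vehicle covered 0.53 for RCOR1, -0.07 for KDM1A, -0.08 for HDAC1, -0.19 for SIN3A and -1.77 for CHD3, where the median over all named genes was -0.04. With MS-275 over vehicle they were 0.16 for RCOR1, 0.13 for KDM1A, 0.03 for HDAC1, -0.22 for SIN3A and -0.75 for CHD3, where the median was -0.03. Across the 9 arrays the signals of RCOR1 and CHD3 ran in opposite directions (Pearson r = -0.95), SIN3A and CHD3 had r = 0.70, and KDM1A and HDAC1 had r = -0.07. These r values describe 9 arrays in 3 groups, and differences between group means were not separated from scatter within groups.

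**Figure D2:**
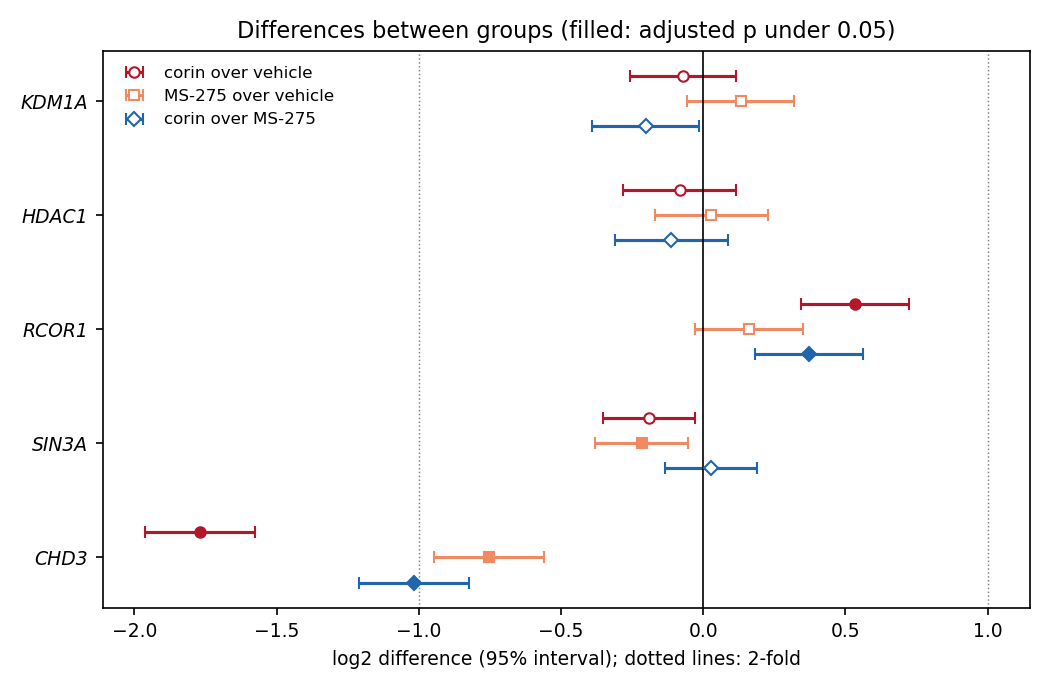
Log2 difference between groups for each gene with its 95% interval from the limma fit, for corin over vehicle (circles), MS-275 over vehicle (squares) and corin over MS-275 (diamonds), filled where the adjusted p was under 0.05. Only CHD3 reaches the dotted lines at 2-fold, at -1.77 with corin over vehicle and -1.02 with corin over MS-275, and the intervals of HDAC1 all include 0.

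The promoters of RCOR1 and CHD3 are shown because these genes changed in opposite directions with corin. Each stretch is a window of 300 bases that ends shortly after a start RefSeq annotates for the gene (build GRCh38.p14, both on the plus strand). The windows lie at chr14:102592399-102592698 for RCOR1 and chr17:7888539-7888838 for CHD3. Where a gene had several windows the first listed was taken, and the start used in WM983B cells was not measured. Capitals mark GGGCGG, the core of a GC box, and CCAAT, the core of a CCAAT box, on either strand.
RCOR1: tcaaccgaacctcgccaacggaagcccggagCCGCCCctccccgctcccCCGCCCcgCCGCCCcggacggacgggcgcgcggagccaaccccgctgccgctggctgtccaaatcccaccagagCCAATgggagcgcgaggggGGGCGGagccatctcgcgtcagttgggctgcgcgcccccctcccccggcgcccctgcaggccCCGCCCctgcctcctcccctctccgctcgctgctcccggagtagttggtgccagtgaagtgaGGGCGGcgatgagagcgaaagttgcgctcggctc
CHD3: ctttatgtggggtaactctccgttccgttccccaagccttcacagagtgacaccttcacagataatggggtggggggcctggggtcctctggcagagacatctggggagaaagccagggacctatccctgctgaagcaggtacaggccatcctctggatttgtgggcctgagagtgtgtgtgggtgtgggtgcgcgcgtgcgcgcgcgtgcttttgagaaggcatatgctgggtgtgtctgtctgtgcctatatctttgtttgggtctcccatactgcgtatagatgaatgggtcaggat

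The RCOR1 window held 74.3% G and C with 35 CpG dinucleotides, 6 copies of GGGCGG and 1 of CCAAT. The CHD3 window held 56% G and C with 10 CpG, and neither motif. For comparison, 35116 RefSeq promoter windows of this length were counted, with those of 1 chromosome left out. Their median was 58.7% and 14 CpG, 45% held GGGCGG and 34.6% held CCAAT. The E-box core CACGTG was in neither the RCOR1 nor the CHD3 window and in 7.26% of the windows counted. The windows of KDM1A, HDAC1 and SIN3A held 66.7%, 73.7% and 59.7% G and C with 36, 28 and 23 CpG, and HDAC1, whose level did not pass the test, held as many copies of GGGCGG as RCOR1 did, 6. These counts describe the letters of the windows and say nothing of what binds there.

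The genes most like each member were sought by Pearson r over the 9 arrays. Symbols starting LOC, LINC, MIR, SNOR or RNU were left out of the ranking and of the counts. For CHD3 they were IFT122 (r = 0.999), MFN2 (r = 0.998) and ZNF689 (r = 0.998), and 1241 genes had an r over 0.95. ZNF689 differed by -2.90 with corin over vehicle and by -1.28 with MS-275 over vehicle. For RCOR1 they were ZNF445 (r = 0.99), TBX4 (r = 0.98) and GALR2 (r = 0.98), with 194 genes over 0.95, and TBX4 differed by 1.77 with corin over vehicle and by 0.37 with MS-275 over vehicle. For SIN3A they were HNRNPA0 (r = 0.98), CREBBP (r = 0.98), which encodes a histone acetyltransferase, and TIMM44 (r = 0.97), with 25 genes over 0.95. KDM1A had only 3 genes over 0.95, STYX, YES1 and NAXE (r = 0.96 each), and HDAC1 had 0, its nearest being FGF3 (r = 0.94), C1QTNF6 (r = 0.93) and CHST5 (r = 0.91). All of these rest on 9 arrays in 3 groups and are a description.

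Apart from the 5 genes, 48 other subunits of the CoREST, SIN3, NuRD, MiDAC and NCoR/SMRT complexes were listed and 29 measured. With corin over vehicle 10 rose, 11 fell and 8 did not pass the test, with a median log2 difference of -0.04, where 23.4% of all named genes rose and 26.8% fell. With MS-275 over vehicle 2 rose and 7 fell (median -0.085), against 14.2% and 15.4% of all named genes, and with corin over MS-275 7 were higher and 7 lower (median 0.02), against 17.4% and 20.8%. Over all named genes the medians were -0.04, -0.03 and -0.03 in these comparisons.

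In CoREST, 9 of 12 subunits were measured, and with corin over vehicle 4 rose, RCOR1 among them, and 1 fell, where 23.4% of all named genes rose and 26.8% fell. RCOR2, a paralog of RCOR1 that can take its place as scaffold, had 6.30, 5.98 and 5.97 in corin arrays, 5.57, 5.58 and 5.59 in MS-275 arrays, and 4.72, 4.61 and 4.77 in vehicle arrays. The vehicle signals were low. The 3 groups were apart, and RCOR2 rose 2.61-fold with corin (1.38 log2, adjusted p = 3.3e-07 by limma) and 1.84-fold with MS-275 (0.88 log2, adjusted p = 5.9e-05) over vehicle, with corin 0.50 log2 units above MS-275 (adjusted p = 0.00191). PHF21A, the reader of unmethylated lysine 4 of histone H3, rose by 0.32 with corin over vehicle (adjusted p = 0.0186), and RCOR3 passed no test (-0.15 with corin over vehicle, 95% interval -0.46 to 0.16).

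HMG20B, a DNA-binding HMG-box subunit of the same complex, moved the other way. It gave 7.58, 7.71 and 7.50 in corin arrays, 8.25, 8.35 and 8.31 in MS-275 arrays, and 8.69, 8.66 and 8.70 in vehicle arrays, with no overlap between groups. It fell 2.13-fold with corin (-1.09 log2, adjusted p = 4.5e-07 by limma) and 1.30-fold with MS-275 (-0.38 log2, adjusted p = 0.00421) over vehicle, and corin over MS-275 gave a further fall, by a difference of -0.71 (adjusted p = 3.8e-05). HDAC2, the alternative deacetylase of CoREST, SIN3 and NuRD, passed no test, with 0.04 for corin over vehicle (95% interval -0.19 to 0.27, adjusted p = 0.791).

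Among SIN3 subunits, 13 of 21 were measured, and 3 rose and 5 fell with corin over vehicle, against 0 and 5 with MS-275 over vehicle. The shares of all named genes were 23.4% and 26.8% with corin and 14.2% and 15.4% with MS-275, so the share of subunits that rose with corin was near the background. Without corin replicate 1, corin replicate 2, vehicle replicate 2 or vehicle replicate 3 the falls with corin numbered 3, and without MS-275 replicate 1, MS-275 replicate 2, corin replicate 1, vehicle replicate 2 or vehicle replicate 3 those with MS-275 numbered 3. SIN3B, the paralog of SIN3A, had 7.01, 7.08 and 7.15 in corin arrays, 6.58, 6.48 and 6.41 in MS-275 arrays, and 6.32, 6.42 and 6.59 in vehicle arrays. Only the corin arrays stood apart, and SIN3B was 1.55-fold above vehicle (0.63 log2, adjusted p = 1.2e-04 by limma) and 1.50-fold above MS-275 (0.59 log2, adjusted p = 3.8e-04) with corin, while MS-275 over vehicle gave 0.04 (adjusted p = 0.782). PHF12, a zinc-finger partner of SIN3, fell with MS-275 over vehicle (-0.43, adjusted p = 0.0045) and was 0.62 higher with corin than with MS-275 (adjusted p = 2.9e-04). BRMS1, another partner, fell with both (-0.55 with corin over vehicle and -0.50 with MS-275 over vehicle), and KDM5A, a demethylase of the trimethylated form of lysine 4, rose by 0.31 with corin over vehicle (adjusted p = 0.0089) and by 0.40 with corin over MS-275 (adjusted p = 0.00297).

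Of the NuRD subunits, 12 of 15 were measured, CHD3 among them, and 1 rose and 7 fell with corin over vehicle (median -0.37), 0 rose and 4 fell with MS-275 over vehicle (median -0.16), and 1 was higher and 6 were lower with corin over MS-275 (median -0.20). Of all named genes 23.4%, 14.2% and 17.4% rose and 26.8%, 15.4% and 20.8% fell in these comparisons. The 1 higher with corin over MS-275, CHD5, kept its call only without vehicle replicate 1 and without vehicle replicate 3 among the fits that left out an array. CDK2AP1, a small subunit also known as a regulator of CDK2, gave 6.10, 6.09 and 6.18 in corin arrays, 7.33, 7.73 and 7.48 in MS-275 arrays, and 8.20, 8.07 and 8.18 in vehicle arrays, again with no overlap. Its fall was 4.08-fold with corin over vehicle (-2.03 log2, adjusted p = 1.9e-08 by limma), 1.56-fold with MS-275 over vehicle (-0.64 log2, adjusted p = 7.4e-04) and 2.62-fold with corin over MS-275 (-1.39 log2, adjusted p = 1.3e-06).

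The other NuRD remodelers did not move with CHD3 by the same amount. CHD4, another NuRD ATPase, fell 1.62-fold with corin (-0.70 log2, adjusted p = 2.8e-05) and 1.19-fold with MS-275 (-0.25 log2, adjusted p = 0.0465) over vehicle. CHD5, a remodeler known from neurons, had 5.05, 4.85 and 4.87 in corin arrays, 4.59, 4.63 and 4.67 in MS-275 arrays, and 4.71, 4.42 and 4.35 in vehicle arrays, and rose by 0.43 with corin over vehicle (adjusted p = 0.00497). The CHD5 signal was below that of the median named gene, and whether it lay above background is not known here. MTA1, the NuRD scaffold that binds HDAC1, fell with corin over vehicle (-0.63, adjusted p = 3.6e-05) and also with corin over MS-275 (-0.49, adjusted p = 4.9e-04). RBBP4, a histone-binding subunit that NuRD shares with SIN3, fell in both (-0.94 with corin over vehicle and -0.64 with MS-275 over vehicle), and MBD2, a reader of methylated DNA, passed no test (-0.03 with corin over vehicle, 95% interval -0.29 to 0.24).

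In the remaining HDAC complexes few subunits were measured. MIDEAS, the scaffold of the mitotic deacetylase complex MiDAC, rose 1.84-fold with corin over vehicle (0.88 log2, adjusted p = 2.2e-05) and 1.82-fold with corin over MS-275 (0.86 log2, adjusted p = 5.6e-05), while MS-275 over vehicle gave 0.02. TBL1XR1, a subunit of the NCoR/SMRT complexes, fell with corin over vehicle (-0.93, adjusted p = 3.1e-06) and with corin over MS-275 (-0.73, adjusted p = 5.2e-05). The NCoR/SMRT deacetylase HDAC3 is described with its family next.

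**Figure D3:**
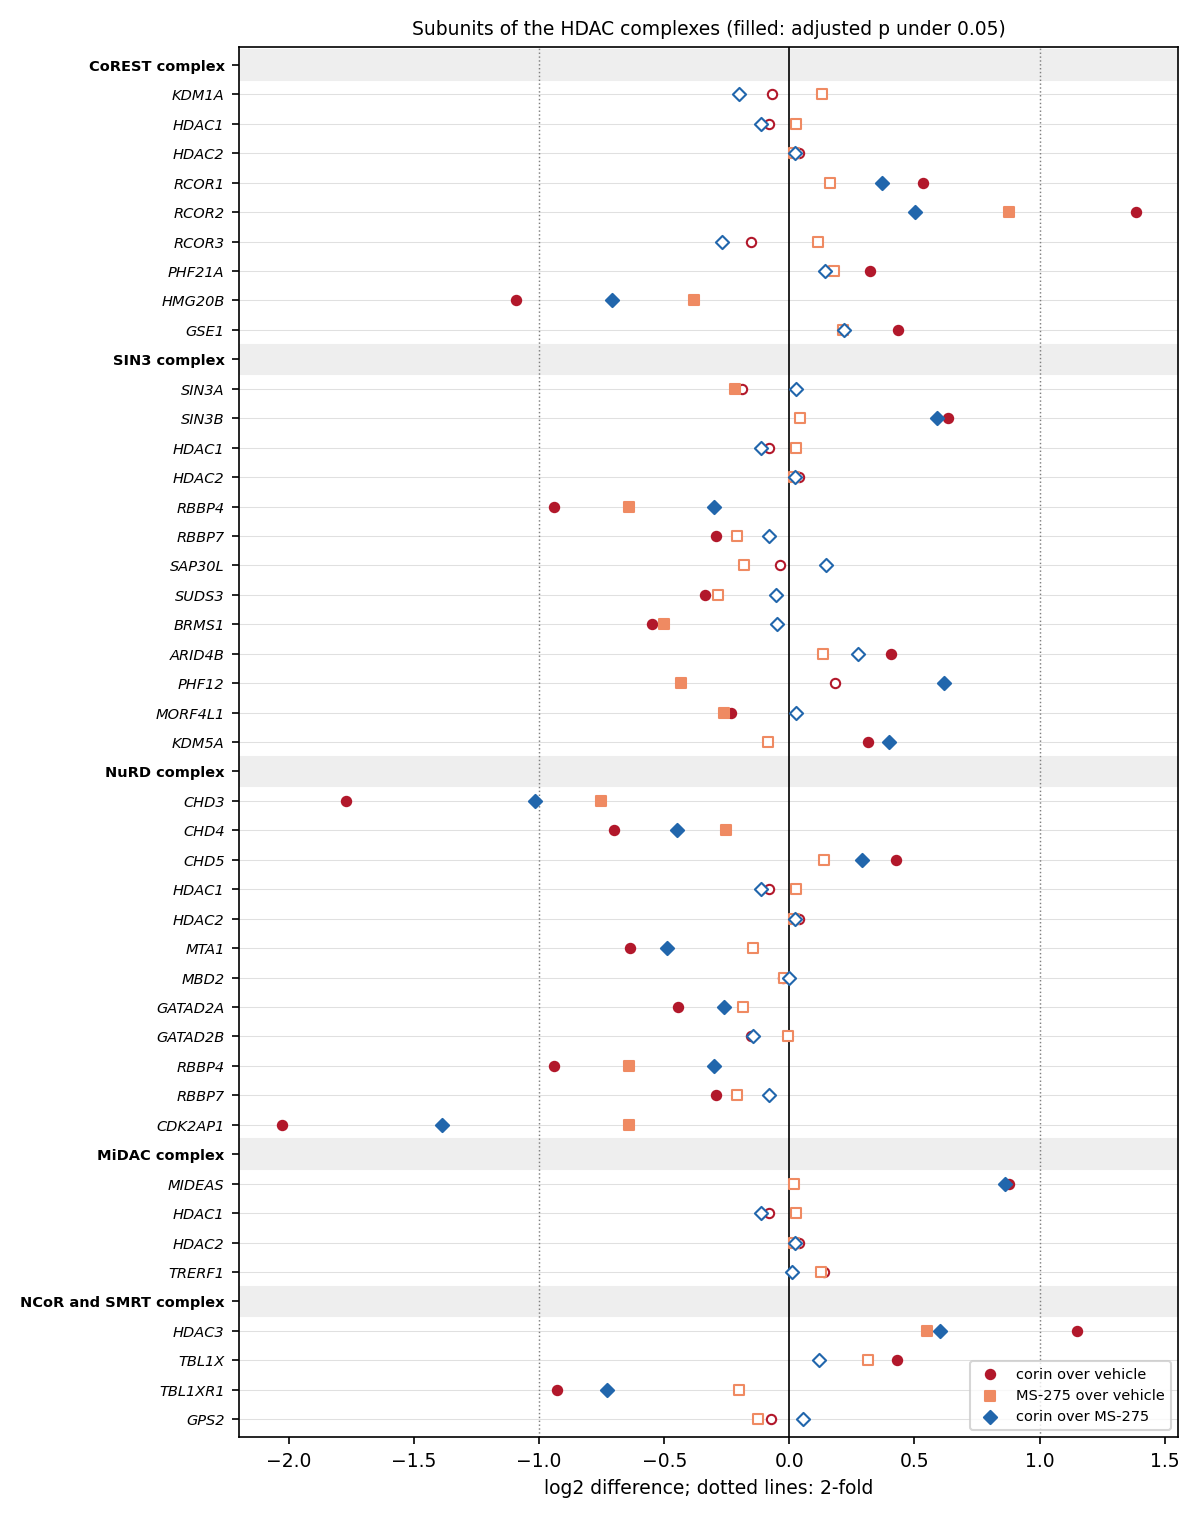
Log2 differences of the measured subunits of 5 HDAC complexes, 1 row per gene, for corin over vehicle (circles), MS-275 over vehicle (squares) and corin over MS-275 (diamonds), filled where the adjusted p was under 0.05. Genes shared by complexes appear in each. With corin over vehicle CHD3 and CDK2AP1 lie farthest to the left, at -1.77 and -2.03, and RCOR2 farthest to the right, at 1.38.

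Of the 4 class I deacetylases, 1 rose and 1 fell with corin over vehicle, which is near the 23.4% and 26.8% of all named genes, and HDAC1 and HDAC2 were the ones that passed no test. HDAC3 had 7.91, 7.78 and 7.73 in corin arrays, 7.12, 7.17 and 7.32 in MS-275 arrays, and 6.71, 6.58 and 6.67 in vehicle arrays. It rose 2.22-fold with corin over vehicle (1.15 log2, adjusted p = 5.5e-07 by limma), 1.46-fold with MS-275 over vehicle (0.55 log2, adjusted p = 7.0e-04) and 1.52-fold with corin over MS-275 (0.60 log2, adjusted p = 2.3e-04). HDAC8, a class I enzyme that works outside these complexes, fell with corin over vehicle (-0.37, adjusted p = 0.00267), against 0.03 with MS-275 over vehicle (adjusted p = 0.823).

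Of the 7 class II and IV enzymes, 1 rose and 2 fell with corin over vehicle, and 1 rose and 0 fell with MS-275 over vehicle, which is near the shares of all named genes with corin (23.4% and 26.8%) and, for the rise, with MS-275 (14.2%). The falls with corin numbered 1 without corin replicate 2, corin replicate 3, vehicle replicate 1 or vehicle replicate 3, and the falls with MS-275 numbered 1 without MS-275 replicate 2, vehicle replicate 2 or corin replicate 3. HDAC5, a class IIa enzyme that shuttles between nucleus and cytoplasm, had 7.82, 7.89 and 7.91 in corin arrays, 7.01, 7.05 and 7.09 in MS-275 arrays, and 6.49, 6.46 and 6.63 in vehicle arrays. The groups were apart, and HDAC5 rose 2.54-fold with corin over vehicle (1.34 log2, adjusted p = 6.1e-08 by limma) and 1.44-fold with MS-275 over vehicle (0.52 log2, adjusted p = 4.5e-04). HDAC7, of the same class, fell with corin over vehicle (-0.74, adjusted p = 2.2e-04).

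KDM1A belongs to the flavin amine oxidases, and several of its relatives passed the test where it did not. Of the 6 members of this family listed here, 4 rose with corin over vehicle and 4 with MS-275 over vehicle. Their median log2 differences were 0.90 and 0.66, where 23.4% and 14.2% of all named genes rose. KDM1B, which encodes LSD2, the other histone demethylase of the family, had 9.53, 9.56 and 9.44 in corin arrays, 8.92, 8.96 and 8.85 in MS-275 arrays, and 7.83, 7.92 and 7.92 in vehicle arrays. With the groups apart, it rose 3.08-fold with corin over vehicle (1.62 log2, adjusted p = 1.2e-08 by limma), 2.03-fold with MS-275 over vehicle (1.02 log2, adjusted p = 3.1e-06) and 1.52-fold with corin over MS-275 (0.60 log2, adjusted p = 9.1e-05). Without vehicle replicate 1 or MS-275 replicate 2 the MS-275 rise was 0.99, just under 2-fold.

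SMOX, spermine oxidase of polyamine breakdown, gave 7.85, 7.76 and 7.85 in corin arrays, 6.73, 6.72 and 6.55 in MS-275 arrays, and 5.81, 5.90 and 5.62 in vehicle arrays. Its rise was 4.12-fold with corin over vehicle (2.04 log2, adjusted p = 8.0e-09 by limma), 1.85-fold with MS-275 over vehicle (0.89 log2, adjusted p = 3.3e-05) and 2.22-fold with corin over MS-275 (1.15 log2, adjusted p = 2.5e-06). The monoamine oxidases did not follow this order. MAOB, with a low signal in vehicle arrays (3.88, 4.05 and 4.14), rose by 1.46 with corin and by 1.53 with MS-275 over vehicle (adjusted p = 4.7e-07 and 1.9e-06 by limma). For MAOB, corin over MS-275 gave -0.07 (95% interval -0.31 to 0.17). MAOA rose with MS-275 over vehicle (0.43, adjusted p = 0.00223), fell with corin over MS-275 (-0.46, adjusted p = 9.4e-04), and with corin over vehicle gave -0.03 (adjusted p = 0.78).

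**Figure D4:**
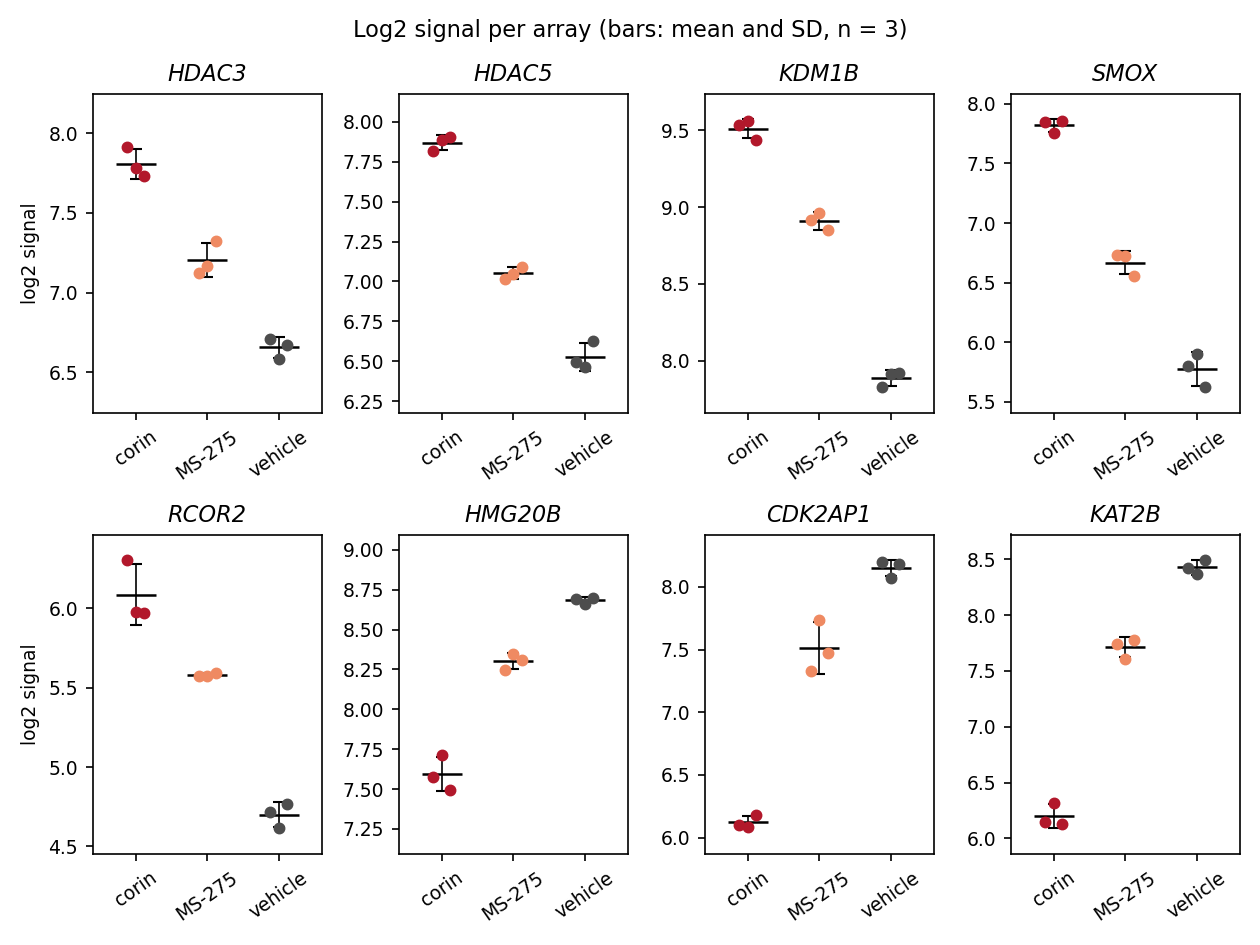
Log2 signal of 8 related genes in each of the 9 arrays (points), with the mean and SD of the 3 arrays of a group as black bars and corin, MS-275 and vehicle from left to right, on axes of different ranges. HDAC3, HDAC5, KDM1B, SMOX and RCOR2 are highest and HMG20B, CDK2AP1 and KAT2B lowest with corin, and in all 8 the MS-275 arrays lie between. The 8 were picked for display, and not all listed genes kept this order. EP300, for one, averaged 10.08 in corin arrays, 9.34 in MS-275 arrays and 9.64 in vehicle arrays.

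Among other enzymes of lysine 4 methylation, the demethylase gene KDM5B rose 2.26-fold with corin over vehicle (1.18 log2, adjusted p = 4.4e-07 by limma) and 1.58-fold with MS-275 over vehicle (0.66 log2, adjusted p = 1.7e-04). Of the 7 measured of 10 methyltransferases and their core subunits, 2 rose and 4 fell with corin over vehicle, and 1 rose and 4 fell with MS-275 over vehicle, where 23.4% and 26.8% of all named genes rose and fell with corin and 14.2% and 15.4% with MS-275. KMT2C, a methyltransferase of enhancers, rose 2.64-fold with corin over vehicle (1.40 log2, adjusted p = 3.5e-08) and 1.22-fold with MS-275 over vehicle (0.29 log2, adjusted p = 0.0145), a call lost without MS-275 replicate 1, MS-275 replicate 3 or vehicle replicate 1. Its paralog KMT2D fell with MS-275 over vehicle (-0.69, adjusted p = 6.9e-05) and gave -0.13 with corin over vehicle (adjusted p = 0.201).

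Acetyltransferases add the groups that the deacetylases remove. Of 8 measured of 9, 7 fell and 1 rose with corin over vehicle (median -0.55), and 7 fell and 0 rose with MS-275 over vehicle (median -0.54). With corin over MS-275, 3 were lower and 1 higher (median -0.07). In these comparisons 26.8%, 15.4% and 20.8% of all named genes fell and 23.4%, 14.2% and 17.4% rose. KAT2B (PCAF) had 6.15, 6.32 and 6.12 in corin arrays, 7.74, 7.61 and 7.78 in MS-275 arrays, and 8.42, 8.37 and 8.50 in vehicle arrays, and fell 4.69-fold with corin over vehicle (-2.23 log2, adjusted p = 2.3e-09 by limma) and 1.64-fold with MS-275 over vehicle (-0.72 log2, adjusted p = 1.0e-04). Its paralog KAT2A (GCN5) fell by 1.40 and 0.79 log2 units in these comparisons. EP300 (p300) was the exception, with 10.12, 10.09 and 10.03 in corin arrays, 9.41, 9.32 and 9.28 in MS-275 arrays, and 9.73, 9.59 and 9.60 in vehicle arrays. It rose with corin over vehicle (0.44, adjusted p = 6.5e-04) and fell with MS-275 over vehicle (-0.31, adjusted p = 0.0133), and the difference of corin over MS-275 was 0.74 (adjusted p = 2.2e-05).

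CoREST has no sequence preference of its own and is brought to genes by DNA-binding factors, some of which work through the corepressors CTBP1 and CTBP2. The list of such factors and both corepressors held 10 genes, all measured, of which 5 rose and 3 fell with corin over vehicle (median 0.30), 3 rose and 3 fell with MS-275 over vehicle (median -0.04), and 4 were higher and 2 lower with corin over MS-275 (median 0.11). Of all named genes 23.4% and 26.8% rose and fell with corin and 14.2% and 15.4% with MS-275 over vehicle. With corin over MS-275, 17.4% were higher and 20.8% lower. The share of the list that fell with corin over vehicle was thus near the background, as was the share lower with corin over MS-275. Those that fell were SNAI2 and the corepressors, with -0.48 for CTBP1 and -0.67 for CTBP2 with corin over vehicle and -0.35 and -0.27 with MS-275 over vehicle. The rises with corin numbered 3 without vehicle replicate 3, and the falls with MS-275 numbered 1 without MS-275 replicate 2, MS-275 replicate 3 or vehicle replicate 3. Those higher with corin over MS-275 numbered 2 without MS-275 replicate 2 or corin replicate 3. SNAI1, a repressor of epithelial genes whose SNAG domain binds LSD1, had 9.84, 9.76 and 9.69 in corin arrays, 8.46, 8.42 and 8.38 in MS-275 arrays, and 6.96, 6.84 and 7.11 in vehicle arrays. It rose 6.95-fold with corin over vehicle (2.80 log2, adjusted p = 4.1e-10 by limma) and 2.73-fold with MS-275 over vehicle (1.45 log2, adjusted p = 5.5e-07). ZEB1, a repressor with a like role and a low signal in vehicle arrays (3.45, 3.56 and 3.51), rose by 1.91 and 1.23 log2 units in these comparisons, whereas SNAI2, of the same family as SNAI1, fell by 1.22 with corin over vehicle and by 0.72 with MS-275 over vehicle. REST, the silencer of neuronal genes that works through RCOR1 and SIN3A, gave -0.22 in both (adjusted p = 0.072 with corin over vehicle and 0.106 with MS-275 over vehicle).

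Genes known to carry REST sites in their regulatory DNA were measured for 9 of 16. Of these 7 rose and 1 fell with corin over vehicle (median 2.04), and 7 rose and 0 fell with MS-275 over vehicle (median 1.04). With corin over MS-275, 3 were higher and 1 lower (median 0.21). In these comparisons 23.4%, 14.2% and 17.4% of all named genes rose and 26.8%, 15.4% and 20.8% fell. Vehicle signals of MAOB, ZEB1, RCOR2, CHD5 and several of these genes, SYN1 among them, were low. They lay under the medians of named genes in the vehicle arrays (5.27 to 5.29). The deposited values carry no detection call. Whether these signals lay above background is therefore not known here. The differences of MAOB, ZEB1, SCG3, CHGA, SYT4 and STMN2 are given on the log2 scale as measured, without a fold. The folds given for RCOR2 and SYN1 are ratios of the signals as measured. SCG3, a granin of secretory vesicles, had 7.97, 8.02 and 7.74 in corin arrays, 5.74, 5.53 and 5.59 in MS-275 arrays, and 3.48, 3.88 and 3.73 in vehicle arrays. It rose by 4.21 log2 units with corin over vehicle (adjusted p = 1.8e-10 by limma) and by 1.92 with MS-275 over vehicle (adjusted p = 5.6e-07). SYN1, a synaptic vesicle protein, did not follow this order, with 9.18, 9.25 and 9.15 in corin arrays, 9.20, 9.17 and 9.19 in MS-275 arrays, and 4.99, 5.03 and 5.01 in vehicle arrays. It rose 18.1-fold with corin and 18.0-fold with MS-275 over vehicle, and the inhibitors overlapped.

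CHGA, chromogranin A, rose by 2.41 log2 units with corin over vehicle (adjusted p = 3.3e-08) and gave 0.28 with MS-275 over vehicle, with corin 2.13 above MS-275 (adjusted p = 2.9e-07). SYT4, a synaptotagmin, rose by 2.95 with corin over vehicle and by 1.04 with MS-275 over vehicle, and STMN2, a regulator of neuronal microtubules, rose by 2.04 and 1.60 in these comparisons. SYP, synaptophysin, has 2 probes, and its rises of 1.34 with corin and 1.13 with MS-275 over vehicle were 0.68 and 0.60 on the mean of both. L1CAM, a cell adhesion gene, was the member that fell with corin over vehicle (-0.84, adjusted p = 1.7e-05), and with MS-275 over vehicle it gave -0.17 (adjusted p = 0.245).

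**Figure D5:**
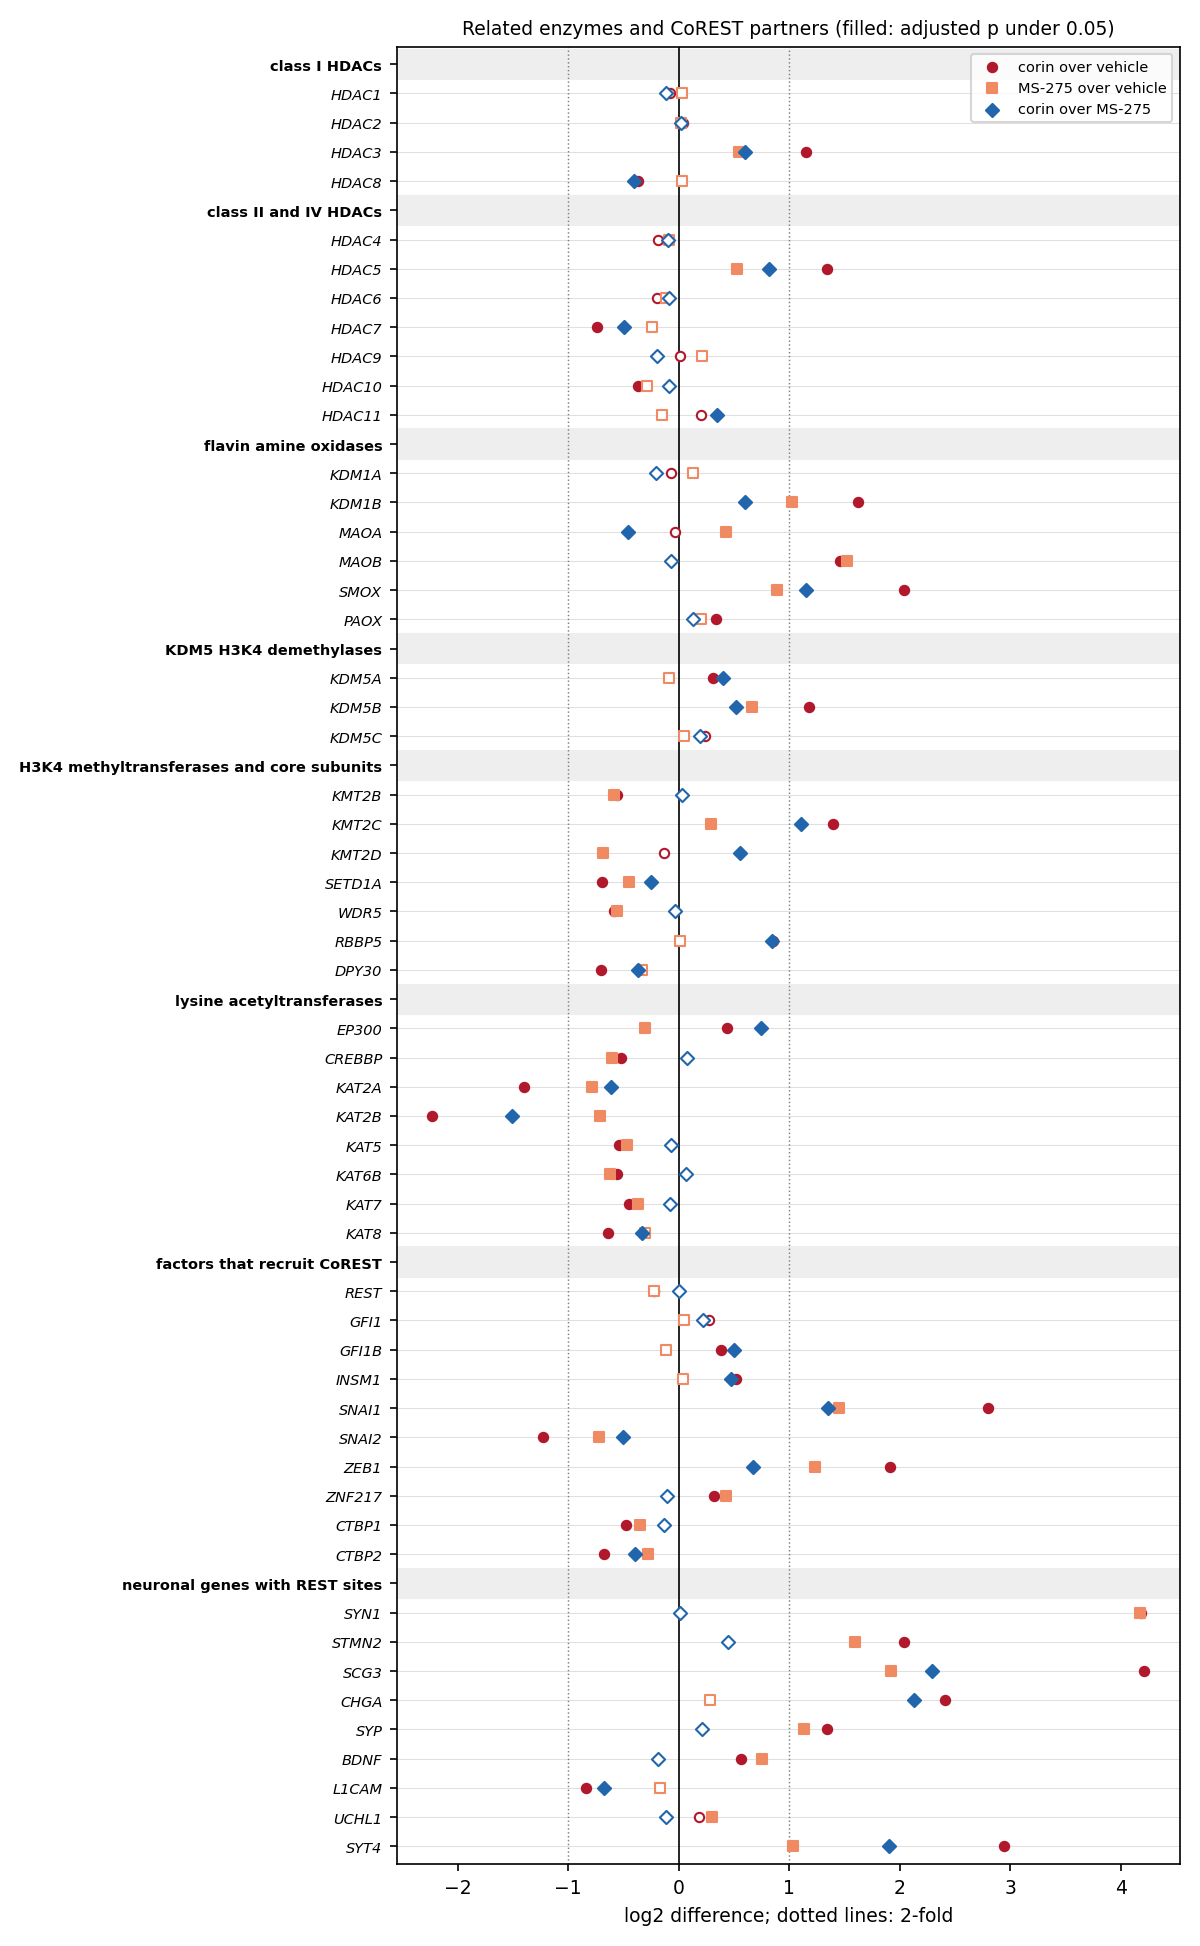
Log2 differences of deacetylases, amine oxidases, histone H3 lysine 4 enzymes, acetyltransferases, CoREST-recruiting factors and neuronal genes with REST sites, 1 row per gene, for corin over vehicle (circles), MS-275 over vehicle (squares) and corin over MS-275 (diamonds), filled where the adjusted p was under 0.05. HDAC1 and KDM1A sit near 0 while KDM1B and SMOX reach 1.62 and 2.04 with corin over vehicle, KAT2B lies at -2.23 and SCG3 at 4.21.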

How the data were processed

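Total RNA of 3 WM983B samples per group, called biological replicates in the design text, was measured on Affymetrix Human Gene 2.0 ST arrays. The values were made by the authors with RMA and Partek and were deposited on the log2 scale, 53617 probes per array, and no further normalization was run on them. The submitters' processing notes name hg19. The probe table gave 16098 probes 1 symbol, 0 several and 37519 none here, and these stood for 14884 genes, 779 of them with several probes, each represented by its brightest probe on average. The methods also speak of independent experiments, but the labels do not tie an array to one, and the p-values rest on how far arrays of a group lay apart.

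Comparisons used limma 3.58.1 under R 4.3.3 (lmFit and eBayes on all 9 arrays, prior degrees of freedom 5.07), with Benjamini-Hochberg adjustment over the 14884 genes and a threshold of 0.05. The fold of 2 comes from the design text, and 1.952, which the methods give for 2 SD, was an alternative. The other alternatives were the replicate block, the groups compared only, the methods' one-way model, the unadjusted p, eBayes with trend and robust, genes at or above the median signal, the mean of probes, median centring, quantile normalization, adjustment over all probes, and each array left out in turn. Named were the 5 genes, the members of each gene list that passed the test at 2-fold or more in any comparison with up to 4 more of the largest change, and the 3 genes most like each of the 5 by Pearson r. The report leaves out some genes of this rule, and PHF21A, RCOR3, HDAC2, MBD2, KDM5A, CHD5, MAOA and REST were named for their role. The genes and lists were chosen with earlier results of these data known. Of 136 list genes, 97 were measured, and the rest were not analysed here. Promoter sequences are from RefSeq, build GRCh38.p14, which is not the build of the files. Plots were made in Python 3.11.15 with matplotlib 3.10.9.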

Additional observations from a re-analysis of the deposited data

How the results depend on the processing

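RCOR1 with corin over vehicle ranged from 0.49 to 0.58 over its 19 alternatives and CHD3 from -1.83 to -1.72, with both calls kept, as were the calls of both with corin over MS-275 (0.32 to 0.43 for RCOR1 and -1.08 to -0.98 for CHD3). SIN3A was the least settled. With corin over vehicle it passed the test at -0.19 with the one-way model (adjusted p = 0.00213), with the unadjusted p (0.0256), with trend and robust eBayes (adjusted p = 0.00584), with genes at or above the median signal (adjusted p = 0.0186), with the mean of probes (adjusted p = 0.0499) and with quantile normalization (adjusted p = 0.0407), and at -0.23 with median centring (adjusted p = 0.0296). With MS-275 over vehicle it lost the call at -0.22 with the replicate block (adjusted p = 0.0758), at -0.13 with quantile normalization (adjusted p = 0.192), and at -0.22 with adjustment over all probes (adjusted p = 0.0864), and ranged from -0.23 to -0.20 with 1 array left out. With corin over MS-275 it reversed to -0.057 under quantile normalization (adjusted p = 0.573). KDM1A with corin over MS-275 passed at -0.20 with the unadjusted p (0.0366), trend and robust eBayes (adjusted p = 0.0135) and genes at or above the median signal (adjusted p = 0.0365), and at -0.28 with quantile normalization (adjusted p = 0.0157). HDAC1 with MS-275 over vehicle ranged from -0.0081, without MS-275 replicate 2, to 0.063 with 1 array left out. Genes at least 2-fold higher with corin over MS-275 numbered 235, against 358, when only the brighter genes were tested, where fewer genes enter. The cause of the other changes was not tested.

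Same-numbered replicates did not deviate together (r from -0.06 to 0.02), and the replicate block changed no other call of the 5 genes. Of 2657 alternative values for differences of the other list genes that passed the test, 2511 kept the call, 146 lost it and 0 reversed, and of 1750 values for differences that had not passed, 80 passed. Of 1482 alternative counts of list members that rose or fell, 103 differed from the reported count by over 1.5 times, many of them counts of a few genes. No scaling alternative moved the median of all genes by as much as 0.1 log2 units. The number of arrays and the low signal of dim probes limit what small differences can show.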
